A study of Danio rerio with 4 samples.

Results

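Complement is a set of plasma proteins that mark and kill foreign or damaged cells, and in vertebrates most of them are made by hepatocytes and released into the blood. A C3 convertase, which in the alternative pathway contains factor B, cleaves C3, and with a further C3 fragment it cleaves C5, whose larger fragment then joins C6, C7, C8 and C9 into a pore in the target membrane, called the membrane attack complex. Factor H and factor I hold C3 cleavage in check on the body's own cells. Zebrafish carry several copies of C3 and make complement from embryonic stages onwards.

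The genes described here were found by symbol. Of 10 symbols looked for, 9 were found (c3a.1, c3b.2, c5, c6, c8a, c8b, c9, cfb and cfh). The symbol c6 stood on 2 rows, which a table of gene names calls c6.1 (ENSDARG00000093052) and c6.2 (ENSDARG00000057113), so that 10 of 32057 rows are described. No row had the symbol cfi, the gene of factor I, which is not analysed here. All 10 rows were among the 20312 genes with enough counts for a test. For c5 and c8a only 1 nexn+/+ library reached the count minimum, so that both passed through their nexn-/- libraries.

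RNA of whole zebrafish embryos was sequenced at 72 hpf (hours post fertilization), with 2 libraries of nexn-/- embryos and 2 of nexn+/+ embryos, each from 25 pooled embryos. The nexn-/- embryos belong to 1 CRISPR/Cas9 line, in which 32 nucleotides of exon 2 of nexn, the gene of the Z-disc protein Nexilin, are deleted, and the nexn+/+ embryos carry no such deletion. The genotypes came from separate incrosses of adults that descend from a heterozygous pair, so that genotype cannot be told apart from parents or tank. The study set out to describe how loss of nexn acts on heart and skeletal muscle, and the labels give no purpose for the complement genes.

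Each library held between 19413597 and 21956272 estimated counts, so that 1 CPM (a count scaled to the depth of its library) stood for 17.6 to 22.9 counts. The targeted gene nexn (ENSDARG00000057317) was at 40.2 and 51 CPM in nexn-/- libraries, against 96.3 and 75.4 CPM in nexn+/+ libraries, and was called lower, though not without either nexn-/- library. Calls required an adjusted p under 0.05 together with a log2(FC), nexn-/- over nexn+/+, beyond 0.5. By this rule 16.7% of the tested genes were higher and 13.9% lower. Of all calls 54.5% were rises, a share of 70.2% when only library size was used for scaling, of 64.9% under upper-quartile scaling and of 77.6% under scaling to rpl13. Markers of fast muscle, epidermis, photoreceptors and neurons were present in all 4 libraries, as in whole embryos, with summed levels of at least 534 CPM per list. The 3 photoreceptor genes summed to 2091 and 2245 CPM in nexn-/- libraries, against 4767 and 5809 CPM in nexn+/+ libraries. The 2 neuron genes summed to 577 and 534 CPM, against 1100 and 1049 CPM. All genes of these 2 lists were called lower by edgeR, and 0 of the fast muscle and epidermis genes were called. Fast muscle genes summed to 44234 and 19862 CPM in the nexn+/+ libraries. The nexn+/+ pair was the less alike, since the chi-square per degree of freedom was 5.61 between the nexn-/- libraries and 50.8 between the nexn+/+ libraries. The cytokine gene il1b had 4 and 10 counts in nexn-/- libraries, against 4 in nexn+/+ replicate 1 and 246 in nexn+/+ replicate 2. The log2(FC) of each complement row is therefore also given without each nexn+/+ library.

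Complement genes of the liver were higher in nexn-/- embryos, but not evenly. Of the 10 rows, 7 were called higher and 0 lower (0 lower also at an unadjusted p under 0.05, and by DESeq2 and limma-voom), where 16.7% of all tested genes were called higher. The 7 were cfb, cfh, c8a, c5, c9, c3a.1 and c8b, with rises of 2.35-fold to 13.9-fold. Both nexn-/- libraries lay above both nexn+/+ libraries in 7 of the 10 rows, beside 36.4% of all tested genes. These were the 7 called rows, so that this order adds nothing separate to the calls. The other 3 rows, c3b.2, c6.1 and c6.2, were not called. The genotypes did not overlap, in either direction, in 8 of the 10 rows (the 7 and, by a narrow margin, c6.1), beside 70.9% of all tested genes. The median log2(FC) of the 10 rows was 2.35, beside 0.02 over all tested genes, and the summed level of the rows was 94.3 and 103 CPM in nexn-/- libraries, against 24.3 and 22.4 CPM in nexn+/+ libraries. In bulk RNA of whole embryos, more liver cells and more RNA per liver cell cannot be told apart, and the part of other cells was not tested.

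By edgeR 7 rows were also called without either nexn+/+ library, but 0 without either nexn-/- library, where the nexn+/+ pair alone sets the spread. Of all tested genes edgeR called 40.9% without nexn+/+ replicate 1 and 35.7% without nexn+/+ replicate 2, against 30.6% with all 4 libraries. Without either nexn-/- library it called 4 of all tested genes, and 7 of the 10 rows were at an unadjusted p under 0.05, as were 5615 and 5776 of all tested genes. DESeq2 and limma-voom each called 5 of the rows without either nexn-/- library, where they called 5.27% to 8.63% of all tested genes.

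**Figure D1:**
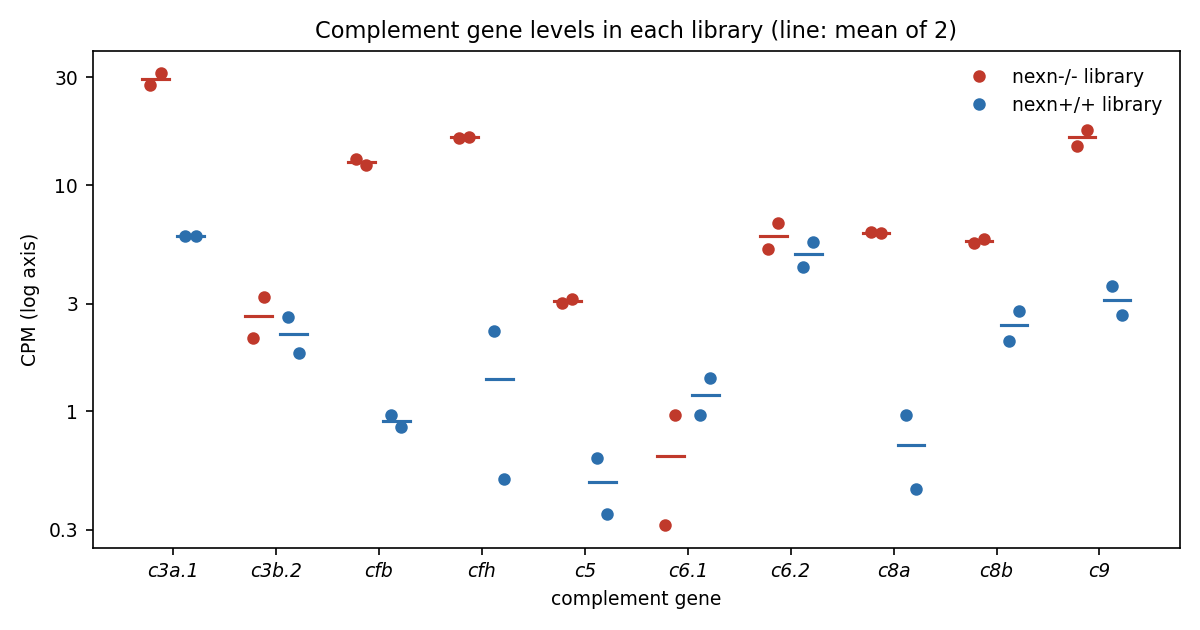
CPM of the 10 complement rows on a log axis, with 1 point per library, nexn-/- in red and nexn+/+ in blue, and a line at the mean of each pair. The points of the genotypes lie apart for c3a.1, cfb, cfh, c5, c8a, c8b and c9, overlap for c3b.2 and c6.2, and nearly touch for c6.1.

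The largest rise was that of cfb (ENSDARG00000055278), the gene of factor B, whose cleaved form is the catalytic part of the alternative C3 convertase. It had 291 and 280 counts in nexn-/- libraries and 17 in each nexn+/+ library. Its level was 12.7 ± 0.572 CPM in nexn-/- and 0.91 ± 0.0753 CPM in nexn+/+ embryos (SD, n = 2 each), 13.9-fold higher (log2(FC) 3.79, standard error 0.232, adjusted p = 0.000685 by edgeR). The replicates lay close together in both genotypes, and the log2(FC) moved only to 3.70 on leaving out nexn+/+ replicate 2 and to 3.88 on leaving out nexn+/+ replicate 1. In all tested genes, 0.478% had a larger log2(FC).

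Factor H, the product of cfh (ENSDARG00000100442), binds C3b and keeps the alternative pathway off host surfaces. The gene had 361 and 375 counts in nexn-/- libraries and 40 and 10 in nexn+/+ libraries, so that the nexn-/- libraries were nearly equal and the nexn+/+ libraries differed 4.50-fold in CPM. Levels were 16.3 ± 0.145 CPM in nexn-/- and 1.39 ± 1.25 CPM in nexn+/+ embryos (SD, n = 2 each). The log2(FC) of 3.58 (standard error 0.486, adjusted p = 0.00266 by edgeR) came to 2.84 when nexn+/+ replicate 2 was left out and to 5.0 when nexn+/+ replicate 1 was, so that the direction did not rest on 1 library but the size did.

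C3 is the protein on which all activation routes meet. Its gene c3a.1 (ENSDARG00000012694) had the most counts of the 10 rows, 617 and 714 in nexn-/- and 105 and 118 in nexn+/+ libraries. This came to 27.7 and 31.2 CPM in nexn-/- libraries and 5.95 CPM in each nexn+/+ library. It was 4.95-fold higher (log2(FC) 2.31, standard error 0.141, adjusted p = 0.000685 by edgeR), and leaving out either nexn+/+ library left the log2(FC) at 2.30 or 2.31. For c3b.2 (ENSDARG00000001818), a C3 copy of another cluster, there were 47.1 and 73.1 counts in nexn-/- and 45.6 and 36 in nexn+/+ libraries. Its genotypes overlapped, with 2.11 and 3.19 CPM in nexn-/- libraries, against 2.61 and 1.81 CPM in nexn+/+ libraries (log2(FC) 0.27, standard error 0.352, adjusted p = 0.592 by edgeR). Its log2(FC) changed to 0.02 when nexn+/+ replicate 2 was left out and to 0.55 when nexn+/+ replicate 1 was. In TPM, which takes length into account, the ratio of c3a.1 to c3b.2 was 14.8 and 11.1 in nexn-/- libraries and 2.6 and 3.76 in nexn+/+ libraries.

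The C3 copies outside this pair mostly went with c3a.1. Of the 6 C3 genes with enough counts, 5 were called higher, beside 16.7% of all tested genes. These were c3a.1, c3a.2, c3a.3, c3a.6 and c3b.1, and c3b.2 was not called. The 4 called genes other than c3a.1 had between 31 and 100 counts in each nexn-/- library and between 3 and 21.7 in each nexn+/+ library. Of these, c3a.2 passed the count filter through its nexn-/- libraries. The gene c3b.1, which stands next to c3b.2 in the RefSeq gene order (assembly GRCz12tu), had a log2(FC) of 2.24 (standard error 0.364). Counts of c3b.1, c3b.2, c3a.2 and c3a.3 were partly not whole, as they are where reads match more than 1 gene, so single copies are uncertain. With all 8 C3 rows summed, there were 897 and 1070 counts in nexn-/- and 207 and 196 in nexn+/+ libraries (log2(FC) 2.01, standard error 0.144, adjusted p = 0.000953 by edgeR).

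C5 starts the terminal pathway. Its gene c5 (ENSDARG00000021004) was at a low level, with 67 and 72 counts in nexn-/- and 11 and 7 in nexn+/+ libraries, or 3.08 ± 0.101 CPM in nexn-/- and 0.488 ± 0.191 CPM in nexn+/+ embryos (SD, n = 2 each). It was 6.31-fold higher (log2(FC) 2.66, standard error 0.395, adjusted p = 0.00362 by edgeR), with 2.29 without nexn+/+ replicate 2 and 3.10 without nexn+/+ replicate 1. Both nexn-/- libraries stood clear of both nexn+/+ libraries, although the nexn+/+ values rest on few counts.

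C8 is built from alpha, beta and gamma chains encoded by c8a, c8b and c8g, and c8a and c8b are next to each other in the RefSeq gene order. Both neighbours were called higher, with different folds. For c8a (ENSDARG00000039516) there were 139 and 140 counts in nexn-/- and 17 and 9 in nexn+/+ libraries, an 8.78-fold rise (log2(FC) 3.13, standard error 0.363, adjusted p = 0.00177 by edgeR). For c8b (ENSDARG00000039517) there were 124 and 132 counts in nexn-/- and 36 and 55 in nexn+/+ libraries, a 2.35-fold rise (log2(FC) 1.23, standard error 0.257, adjusted p = 0.0117 by edgeR). The replicates of nexn+/+ stood in opposite order for the neighbours, c8a being lower and c8b higher in replicate 2. The ratio of c8a to c8b in TPM was thus 1.25 and 1.2 in nexn-/- libraries and 0.562 and 0.194 in nexn+/+ libraries. With 2 libraries on each side an exact test of such a ratio cannot go below p = 0.333, and the ratio was not tested. Without nexn+/+ replicate 2 the log2(FC) values were 2.67 for c8a and 1.47 for c8b, and without nexn+/+ replicate 1 they were 3.75 and 1.03. The gamma chain gene c8g, a lipocalin, had 81 and 72 counts in nexn-/- and 19 and 24 in nexn+/+ libraries, with a log2(FC) of 1.56 (standard error 0.306).

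C9 forms the wall of the pore. Its gene c9 (ENSDARG00000016319) had 332 and 403 counts in nexn-/- and 63 and 53 in nexn+/+ libraries, or 16.3 ± 1.93 CPM in nexn-/- and 3.12 ± 0.635 CPM in nexn+/+ embryos (SD, n = 2 each). The genotypes lay far apart and the rise was 5.22-fold (log2(FC) 2.38, standard error 0.215, adjusted p = 0.00126 by edgeR). Leaving out nexn+/+ replicate 2 gave a log2(FC) of 2.18, and leaving out nexn+/+ replicate 1 one of 2.60.

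C6 and C7 join the complex between C5 and C8, and of the 4 rows for them only c7a was called higher. For c6.2 there were 116 and 155 counts in nexn-/- and 77.4 and 111 in nexn+/+ libraries, and levels overlapped, with 5.2 and 6.78 CPM in nexn-/- libraries, against 4.36 and 5.59 CPM in nexn+/+ libraries (log2(FC) 0.27, standard error 0.246, adjusted p = 0.44 by edgeR). Without nexn+/+ replicate 2 this came to 0.45, and without nexn+/+ replicate 1 to 0.10. For c6.1 there were 7.05 and 22.3 counts in nexn-/- and 16.6 and 28.1 in nexn+/+ libraries, and the nexn-/- libraries differed 3.06-fold from each other. With a log2(FC) of −0.89 (standard error 0.583) and an adjusted p of 0.276 by edgeR it was not called, and gave −0.59 when nexn+/+ replicate 2 was left out and −1.13 when nexn+/+ replicate 1 was. The last of these was called lower by limma-voom, but not by edgeR. No count of either c6 row was whole, so that the split of reads between them is uncertain, and the 2 rows were also taken as 1 gene. Summed, they had 123 and 177 counts in nexn-/- and 94 and 139 in nexn+/+ libraries (log2(FC) 0.10, standard error 0.255, adjusted p = 0.787 by edgeR). The neighbour of c6.2 in the RefSeq gene order is c7b, which had 28 and 46 counts in nexn-/- and 42 and 123 in nexn+/+ libraries. DESeq2 called it lower, but edgeR did not (log2(FC) −1.40, standard error 0.498, adjusted p = 0.0689). The other C7 gene, c7a, was called higher (log2(FC) 1.13, standard error 0.241), with 274 and 308 counts in nexn-/- and 128 and 91 in nexn+/+ libraries.

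**Figure D2:**
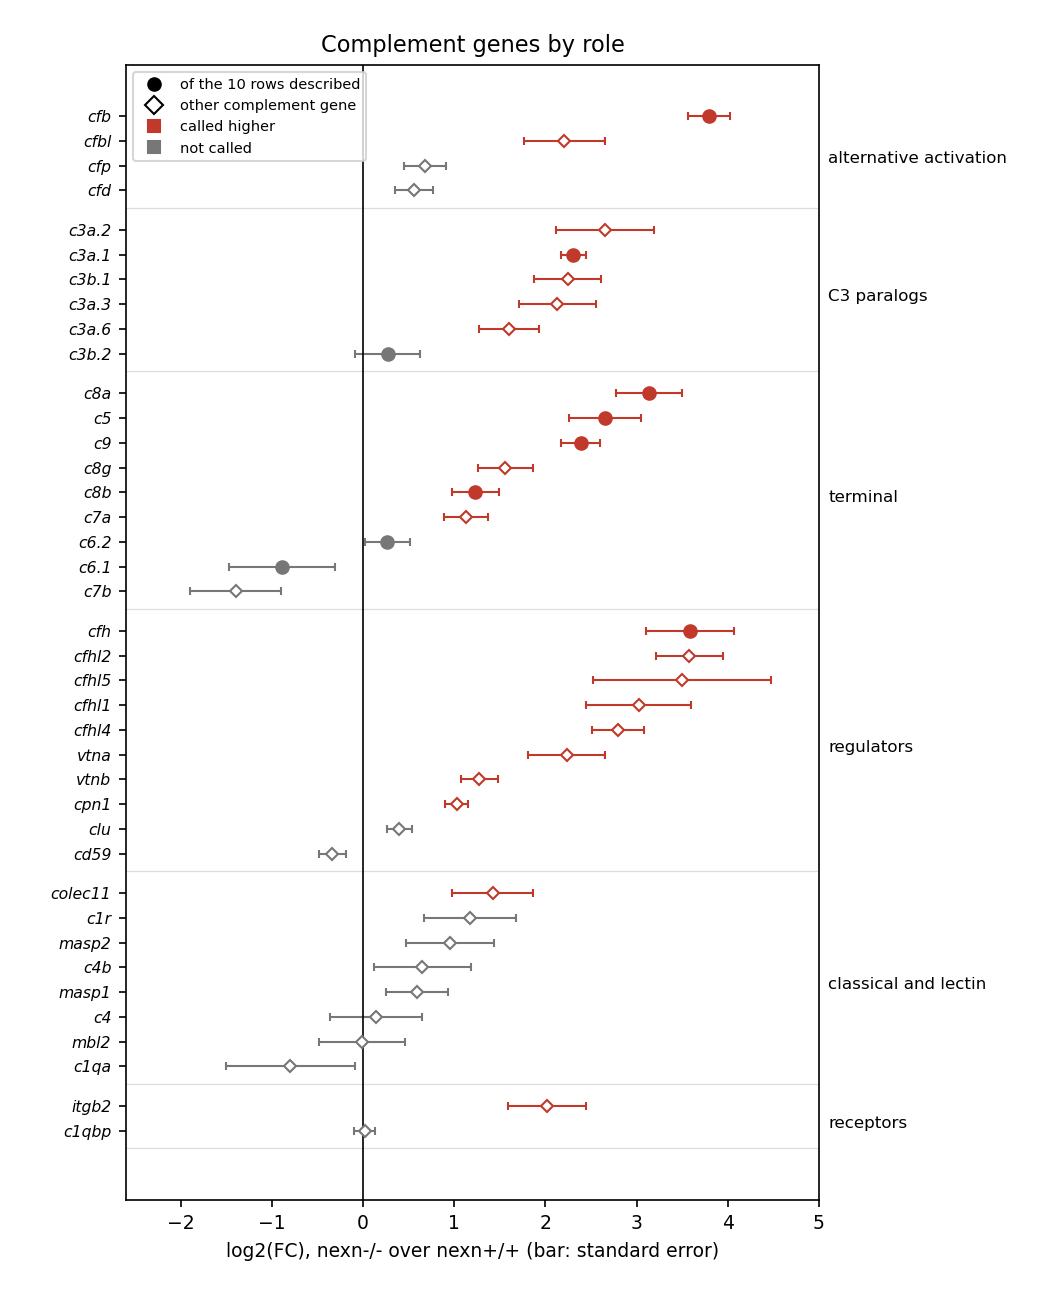
log2(FC) of nexn-/- over nexn+/+ with its standard error for the 39 complement genes that could be tested, grouped by role, circles for the 10 rows described and diamonds for the others, red where called higher and grey where not called. In the terminal group c8a, c5 and c9 lie at 2.38 to 3.13 and c6.2, c6.1 and c7b at 0.27 or below.

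The order of the complement genes by level also differed between the genotypes. In TPM of nexn-/- embryos c9 came first with 9.47 ± 0.99 (SD, n = 2), above the ranges of all other rows. It was followed by c3a.1 (7.11 ± 0.453), cfb (6.78 ± 0.481) and cfh (6.81 and 6.72 in the libraries), whose ranges overlapped. Then came c6.2 (4.29 ± 1.43), c8a (4.01 ± 0.113) and c8b (3.28 in both libraries), of which c6.2 could not be set apart from either neighbour. The lowest were c5 (0.73 and 0.74), c3b.2 (0.46 and 0.67) and c6.1 (0.14 and 0.48), with c6.1 overlapping c3b.2. In nexn+/+ embryos c6.2 came first with 2.1 and 3.89 TPM, above the ranges of all other rows. It was followed by c9 (1.59 ± 0.127), c3a.1 (1.28 ± 0.156) and c8b (0.96 and 1.55), with c8b overlapping both. cfh, c6.1, cfb, c8a and c3b.2 lay between 0.21 and 0.72 TPM and could not be put in order, and c5 was the lowest at 0.12 and 0.08.

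The share of each row in their summed TPM shows the same shift. The share of c6.2 was 7.91% and 11.7% in nexn-/- libraries and 24.8% and 37.7% in nexn+/+ libraries. That of cfb was 17.2% and 14.3% in nexn-/- and 4.95% and 4.36% in nexn+/+ libraries, and that of cfh was 16.4% and 14.9% against 8.49% and 2.04%. For c3a.1 the shares differed less, with 16.4% in each nexn-/- library and 13.8% and 13.5% in the nexn+/+ libraries. Shares sum to a fixed total, so a rise of 1 gene lowers the share of the others.

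**Figure D3:**
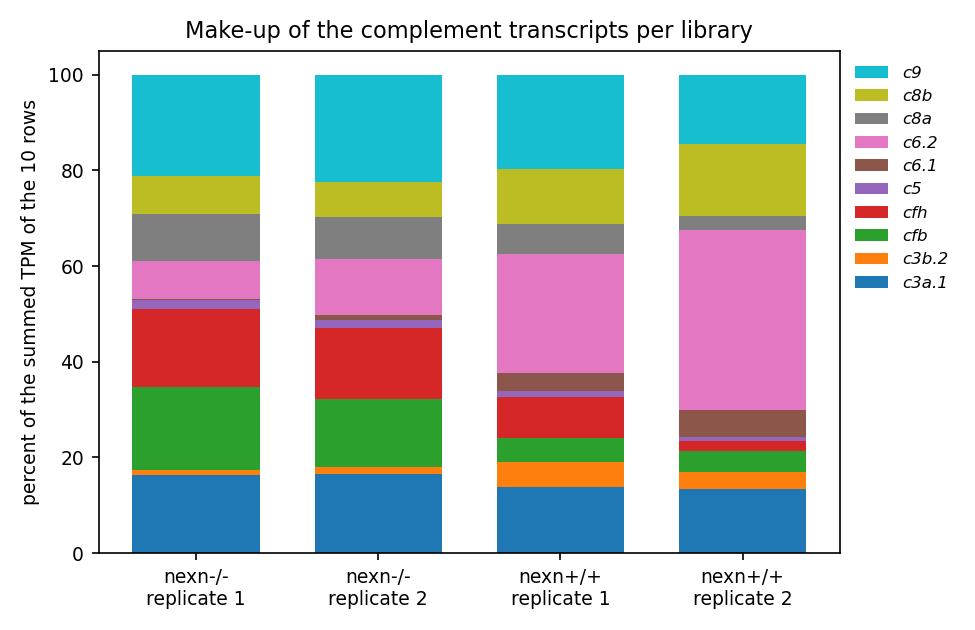
Share of each of the 10 complement rows in their summed TPM, in percent, as 1 stacked bar per library. The share of c6.2 is largest in the nexn+/+ libraries, at 24.8% and 37.7%, and those of cfb and cfh are larger in the nexn-/- libraries.

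Complement genes outside the 10 rows were taken from lists by role, 53 symbols of which 37 were found on 38 rows. Of these, 29 could be tested, with 16 called higher and 0 lower by edgeR (1 lower at an unadjusted p under 0.05 and 1 lower by DESeq2, both c7b). Of all tested genes 16.7% were called higher. The median log2(FC) of the 29 genes was 1.17. Without either nexn-/- library 0 of them were called by edgeR. Of the genes called higher, c3a.2, cfbl, cfhl1, cfhl2, cfhl5, itgb2 and colec11 reached the count minimum in at most 1 nexn+/+ library. They thus passed through their nexn-/- libraries, in which they are high. Of the relatives of factor H, cfhl4 stands beside cfh in the RefSeq gene order. The genes cfhl1, cfhl2, cfhl4 and cfhl5 were called higher with log2(FC) values of 2.80 to 3.58, of which cfhl4 was the most abundant with 490 and 560 counts in nexn-/- and 79 and 45 in nexn+/+ libraries. The value of cfhl5 rests on 2 and 0 counts in nexn+/+ libraries. The relative cfhl3 had too few counts for a test, 6 and 4 in nexn-/- and 7 and 0 in nexn+/+ libraries, and its genotypes overlapped. The relative of factor B, cfbl, was also called higher (log2(FC) 2.21, standard error 0.442).

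Vitronectin blocks insertion of the pore, and both of its genes were called higher, with a log2(FC) of 2.23 (standard error 0.422) for vtna and 1.27 (standard error 0.202) for vtnb. So was cpn1, a subunit of the carboxypeptidase that trims C3a and C5a (log2(FC) 1.03, standard error 0.127). Of the regulators 8 of 10 tested genes were called higher by edgeR and 7 by DESeq2, beside 16.7% of all tested genes by edgeR. The 8 include cfhl1, cfhl2 and cfhl5, which passed through their nexn-/- libraries. The regulators that edgeR did not call were clu, the gene of clusterin (log2(FC) 0.40, adjusted p = 0.0642 by edgeR), and cd59, a membrane protein that stops C9 (log2(FC) −0.34, adjusted p = 0.113 by edgeR). Factor D, the protease that cleaves factor B, is encoded by cfd, which had 1576 and 1644 counts in nexn-/- and 1049 and 744 in nexn+/+ libraries and a log2(FC) of 0.56 that was not called (adjusted p = 0.0743 by edgeR). Neither was cfp, the gene of properdin (log2(FC) 0.68, adjusted p = 0.062 by edgeR). For cfd and cfp both nexn-/- libraries lay above both nexn+/+ libraries, as in 36.4% of all tested genes. Of cfb, cfbl, cfd and cfp, limma-voom called 3 higher, where edgeR and DESeq2 each called 2.

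The genes of the antibody and lectin routes had few counts, and their share of calls was near that of all tested genes (16.7% called higher). Of 8 tested genes 1 was called higher by edgeR, the collectin colec11 (log2(FC) 1.42, adjusted p = 0.0473), and 0 by DESeq2 and limma-voom. The protease genes masp1, masp2 and c1r had log2(FC) values of 0.59 to 1.17, and none was called. In each of them both nexn-/- libraries lay above both nexn+/+ libraries. This order held in 4 of the 8 tested genes, colec11 among them, beside 36.4% of all tested genes. The genes c4, c4b, mbl2 and c1qa had overlapping groups, with at most 58 counts in any library. Of the receptor list only itgb2, the shared beta chain of leukocyte integrins, and c1qbp could be tested. The first was called higher (log2(FC) 2.02, standard error 0.429), and c1qbp had a log2(FC) of 0.02 (standard error 0.111).

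Other hepatocyte genes were also higher in the same embryos. Most of the liver lists overlap genes already seen to rise in these data, so their counts are not independent support. Of 27 tested genes, 22 were called higher and 0 lower (0 lower at an unadjusted p under 0.05, and by DESeq2 and limma-voom), beside 16.7% of all tested genes called higher. The median log2(FC) of the 27 genes was 2.92. Without either nexn-/- library edgeR called 0 of them. The liver fatty acid binding protein gene fabp10a had 423 and 489 counts in nexn-/- and 86 and 40 in nexn+/+ libraries (log2(FC) 2.56, standard error 0.349). The largest rise in this list was that of uox, the urate oxidase gene (log2(FC) 4.56, standard error 0.410). The genes uox, gc and itih3a fell short of the count minimum in a nexn+/+ library, so that they passed through their nexn-/- libraries. The called row with the symbol hp is named msmbl in the table of gene names, and the row named hp there had too few counts for a test. The summed level of the 10 complement rows over that of the hepatocyte list was 0.0358 and 0.0391 in nexn-/- libraries and 0.0272 and 0.0352 in nexn+/+ libraries (exact permutation test, two-sided, p = 0.333, the smallest that 2 against 2 allows). This ratio turned on rbp4, the retinol carrier, which held 27.7% and 26.9% of the list in nexn-/- and 75% and 81.7% in nexn+/+ libraries and was not called. Without rbp4 the ratio was 0.0495 and 0.0534 in nexn-/- libraries and 0.108 and 0.193 in nexn+/+ libraries. The most abundant gene of the list was then apoa2. It held 703 and 738 of 1904 and 1936 CPM in nexn-/- and 62.6 and 29.8 of 224 and 116 CPM in nexn+/+ libraries. Over fabp10a alone the summed complement level was 4.97 and 4.84 in nexn-/- libraries and 4.99 and 11.1 in nexn+/+ libraries, a difference that rests on nexn+/+ replicate 2. The direction of the ratio thus depended on the genes it was set against. In TPM the genotypes overlapped, for the whole list (0.0102 and 0.0116 in nexn-/-, 0.00709 and 0.0104 in nexn+/+ libraries) and for fabp10a (0.308 and 0.335 in nexn-/-, 0.328 and 0.754 in nexn+/+ libraries).

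Of 8 tested transcription factor genes of the liver, foxa3 (log2(FC) 1.03), hnf4a (1.02) and cebpa (0.96) were called higher and onecut1 was called lower (−1.40). The standard errors of these log2(FC) values were between 0.129 and 0.245. DESeq2 and limma-voom each called 4 of the 8 higher and 1 lower. At an unadjusted p under 0.05 by edgeR 4 were higher and 2 lower, namely onecut1 and prox1a (log2(FC) −0.68, not called). Of all tested genes 16.7% were called higher and 13.9% lower. The tissue source of the transcription factor transcripts in whole embryos was not tested. The rises of foxa3, hnf4a and cebpa lay below the 1.23 to 3.79 of the 7 complement rows called higher, a difference that was not tested.

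**Figure D4:**
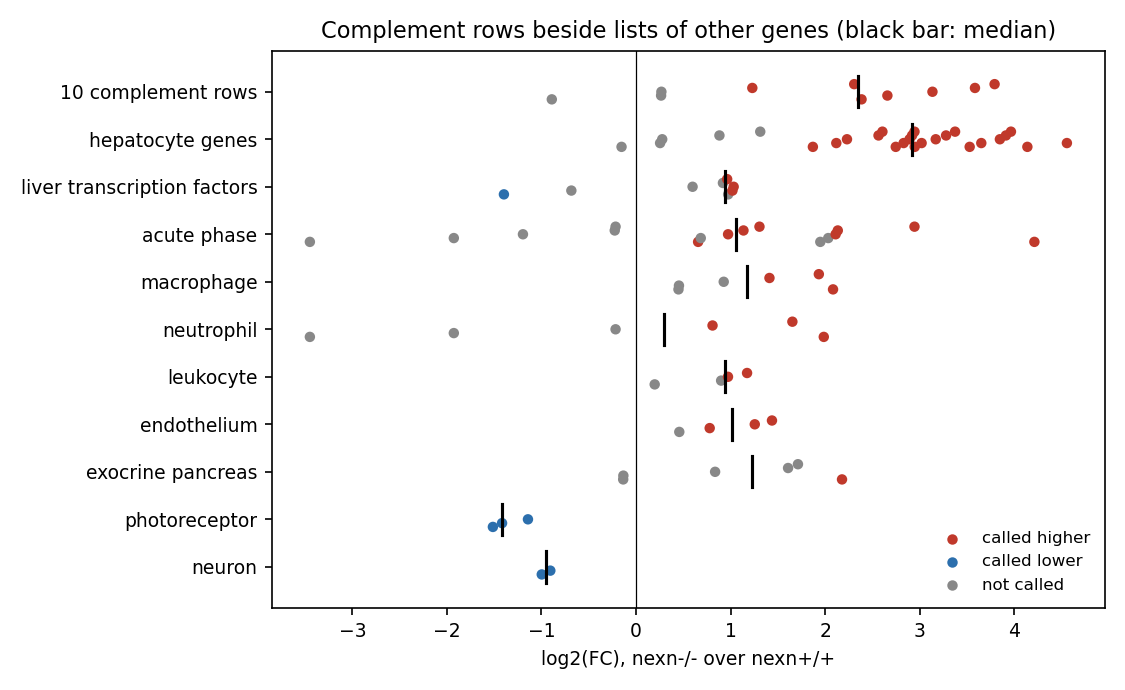
log2(FC) of nexn-/- over nexn+/+ for each tested gene of the 10 complement rows and of lists of other genes, red where called higher, blue where called lower and grey where not called, with a black bar at the median of each list. The complement and hepatocyte medians lie at 2.35 and 2.92, and those of photoreceptor and neuron genes below 0.

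In mammals, complement genes of the liver are also raised by interleukin signals in the acute phase response, and cells other than hepatocytes make some complement. On a list of acute phase and inflammatory genes 8 of 16 tested rows were called higher and 0 lower (1 lower at an unadjusted p under 0.05, and 0 lower by DESeq2 and limma-voom), with a median log2(FC) of 1.05. Of all tested genes 16.7% were called higher. The 8 include the row with the symbol hp that is named msmbl in the table of gene names. The largest called rise was that of leap2, a liver antimicrobial peptide gene (log2(FC) 4.21, with 8 and 7 counts in nexn+/+ libraries). Of the 8, leap2 and lcn15 fell short of the count minimum in at least 1 nexn+/+ library, and passed through their nexn-/- libraries. The genes stat3 (1.14), il6r (1.31) and il6st (0.97), parts of the interleukin 6 signal path, were called higher as well. On the same list socs3a (0.68), socs3b (−0.23), crp1 (1.95) and crp3 (2.03) were not called. The values of crp1 and crp3 rest on few counts. They had 13 and 16, and 53 and 43, in nexn-/- libraries, against 6 and 0, and 17 and 2, in nexn+/+ libraries. The gene saa had 0 counts in both nexn-/- libraries and in nexn+/+ replicate 1, and 15 in nexn+/+ replicate 2, and was not tested. Genes of acute inflammation were high in 1 library, nexn+/+ replicate 2. The protease gene mmp9 had 106 and 112 counts in nexn-/- libraries, against 57 in nexn+/+ replicate 1 and 661 in nexn+/+ replicate 2. The chemokine gene cxcl8a had 44 and 31 counts in nexn-/- libraries, against 26 in nexn+/+ replicate 1 and 121 in nexn+/+ replicate 2. In nexn+/+ replicate 2 the CPM of cfh, c5, c8a, c9, c3b.2 and, slightly, cfb was lower and that of c8b, c6.1 and c6.2 higher than in nexn+/+ replicate 1, and a part of inflammation in these values was not tested.

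Some markers of macrophages (3 of 6 tested genes), neutrophils (3 of 6), other leukocytes (2 of 4) and endothelium (3 of 4) were called higher. By edgeR 0 of these markers were called lower, and of all tested genes 16.7% were called higher and 13.9% lower. At an unadjusted p under 0.05, 1 neutrophil row (a row of mmp13a, high in nexn+/+ replicate 2) and 0 of the others were lower, and DESeq2 and limma-voom called 0 lower in these lists. All these genes were detected in every library. On the macrophage list csf1ra had the most counts in nexn-/- libraries, 272 and 261, against 65 and 50 in nexn+/+ libraries. The called gene ctss2.1 had 9 and 11 counts in nexn+/+ libraries. It reached the count minimum in only 1 of them, and passed through its nexn-/- libraries. The macrophage perforin gene mpeg1.1, marco and mfap4, and the pan-leukocyte gene ptprc, were not called. The summed level of the macrophage list was 26.3 and 27.1 CPM in nexn-/- libraries, against 11.9 and 10.3 CPM in nexn+/+ libraries. Of these sums csf1ra alone held 12.2 and 11.4 CPM in nexn-/- libraries, against 3.68 and 2.52 CPM in nexn+/+ libraries. For the neutrophil list it was 50 and 58.2 CPM in nexn-/- libraries, against 28 and 65.2 CPM in nexn+/+ libraries, so that these overlapped. In nexn+/+ replicate 2, mmp9 made up 33.3 CPM of this sum and 1 row of mmp13a made up 17.1 CPM. Both nexn-/- libraries lay above both nexn+/+ libraries in 3 of the 6 tested neutrophil rows, beside 36.4% of all tested genes. These were the genes called higher, mpx, lyz and npsn. Other leukocyte genes summed to 21.3 and 24.1 CPM in nexn-/- libraries, against 11.6 in both nexn+/+ libraries. Of the exocrine pancreas genes 1 of 6 tested was called higher, prss1, which is near the 16.7% of all tested genes. All 9 tested rows for the yolk syncytial layer and gut were called higher by edgeR and 8 by DESeq2, beside 16.7% of all tested genes by edgeR. The 9 rows summed to 3047 and 3069 CPM in nexn-/- libraries, against 272 and 156 CPM in nexn+/+ libraries. One of them, named apoa4b.3 in the table of gene names, had 1.25 and 3 counts in nexn+/+ libraries and passed through its nexn-/- libraries. The part of these cells in the complement values was not tested.

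Whichever library was left out, the 7 called rows kept a log2(FC) above 1. The values moved most for cfh, c8a and c5, the rows whose nexn+/+ libraries differed most among the 7, and least for c3a.1 (2.22 to 2.39) and cfb (3.70 to 3.88). The sign of c3b.2 was not settled, with values between −0.06 and 0.55.

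**Figure D5:**
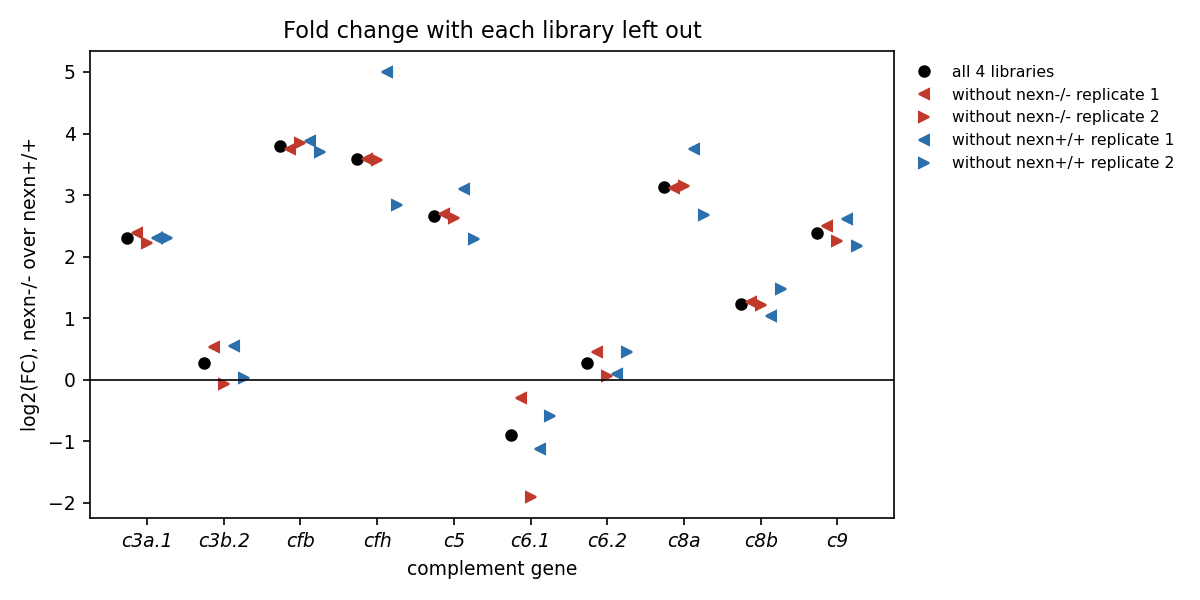
log2(FC) of nexn-/- over nexn+/+ for each complement row with all 4 libraries (black) and with 1 library left out, red for nexn-/- and blue for nexn+/+ libraries. Leaving out a nexn+/+ library spreads cfh from 2.84 to 5.0, whereas c3a.1 stays between 2.22 and 2.39 throughout.

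The genes whose pattern was most like the complement median over the 4 libraries were sought by the Euclidean distance between centred log2 CPM values, among genes averaging 1 CPM or more. The 5 nearest were myhz1.1, a fast muscle myosin gene, tmbim1a, rassf8a, emilin2b and the globin gene hbae1.3, at distances of 0.105 to 0.139 and with log2(FC) values of 2.16 to 2.36. With 4 libraries in 2 groups, such a distance says little beyond a rise of like size.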

How the data were processed

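For each of the 4 libraries the authors deposited a table of genes with estimated counts, which are not normalized, TPM values, scaled to effective length and depth, and FPKM values, proportional to TPM within a library and not used further. The submitters' processing notes name STAR, RSEM and GRCz11, and the annotation release and strand setting are not given in the sources used here. The headings of all 4 deposited tables carry the same library name, so each table's library was taken from its deposition record. Between 92% and 93.2% of the deposited estimated counts above 0 were whole.

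Counts were rounded, filtered (filterByExpr, at least 10 counts at the median depth), scaled by TMM and tested in R 4.3.3 with edgeR 4.0.16 (quasi-likelihood, genotype as the only term, p adjusted by Benjamini-Hochberg over all tested genes). A standard error is the log2(FC) over the root of F. Scripts were tested on simulated data. The labels do not say whether replicates came from separate clutches, so p-values measure the spread between these pools. The genes, lists and tests were chosen with earlier results of these data known. Alternatives were DESeq2 1.42.0, limma-voom 3.58.1, other scalings and filters, effective length from counts and TPM, the replicate number as a block, other fold limits and each library left out. Sums of copies, list values without rbp4 and calls with a library left out were added after seeing the data. No sequence table was used, so no sequence is shown. All complement rows, nexn and fabp10a were named, and other list genes were named after their values were seen. The largest called rise or fall of a list was named, except for the endothelium, other leukocyte, yolk and gut, photoreceptor and neuron lists.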

Additional observations from a re-analysis of the deposited data

How the results depend on the processing

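All 7 calls among the complement rows were also made by DESeq2, by limma-voom, with each other scaling and filter, with the effective length offset and with either other fold limit. The median log2(FC) of the 10 rows was 2.58 with libraries scaled to rpl13 and ranged from 2.23 to 2.46 with each library left out. The median of all genes was 0.17 when only library size was used, 0.126 under upper-quartile scaling and 0.258 under rpl13 scaling, so these scalings raise every value by about that much. Same-numbered libraries did not deviate together (correlation −0.02 over tested genes), and with the replicate number as a block 7 rows were called and all calls numbered 6158, against 6223 without it. A log2(FC) limit of 1 gave 3140 calls over all genes.

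With each library left out, edgeR's calls ranged from 0 to 7 of the 10 rows, from 4 to 8560 of all genes, from 0 to 19 of the complement genes outside the rows and from 0 to 24 of the hepatocyte genes, the low values all without a nexn-/- library. The lone library is assumed to vary like the others. The log2(FC) of nexn ranged from −1.09 to −0.73, and was not called without either nexn-/- library (adjusted p = 0.116 and 0.0687 by edgeR). The ratio of the complement rows to the hepatocyte list, nexn-/- over nexn+/+, was 1.2. It was 0.609 over fabp10a alone, a value that rests on nexn+/+ replicate 2, and 0.342 without rbp4. Leaving out single libraries gave 1.06 to 1.38 for the whole list. Depth limits c5, c6.1, c8a, cfb and cfh, each with under 20 counts in at least 1 library.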
